A study of Homo sapiens with 6 samples.

Results

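Glycolysis and the cellular response to low oxygen share many genes, and 43 of them were followed here in a pair of esophageal squamous cell carcinoma (ESCC) lines. The members are rows with the symbols of these genes, a rule that uses no measured value. The list itself was chosen with earlier results of these data known. They make up 43 of the 58884 gene rows of the expression matrix, and each symbol stood on a single row. The glycolytic arm holds 25 genes: 17 enzymes from hexokinase to lactate dehydrogenase, the PFKFB regulators of the pathway, the glucose and monocarboxylate transporters, and the pyruvate dehydrogenase kinases. The hypoxia arm holds 18 genes: the alpha subunits of the hypoxia-inducible factors (HIF), the prolyl hydroxylases that sense oxygen, and known HIF targets.

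RNA was sequenced from 6 libraries, 3 of KYSE450 cells and 3 of KEAP1null-KYSE450 cells. KYSE450 is an established human ESCC line with wild-type NRF2. Both lines grew untreated in RPMI1640 medium with fetal bovine serum, in humidity with CO2. KEAP1null-KYSE450 is a single clone expanded from KYSE450 after CRISPR-Cas9 editing of KEAP1, so effects of KEAP1 loss and differences peculiar to that clone cannot be told apart. Nothing states whether the 3 libraries of a line came from separate cultures, so p-values measure the spread between these libraries, which may be technical.

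In glycolysis, glucose enters the cell through facilitative transporters, is trapped by hexokinase and is split into pyruvate, which lactate dehydrogenase turns into lactate that leaves the cell with a proton. Most steps have several isozymes encoded by separate genes. When oxygen is low, HIF alpha subunits escape hydroxylation by the EGLN enzymes, pair with ARNT and bind hypoxia response elements (HREs). Genes for glucose uptake, glycolysis, lactate export, pH control, blood vessel growth, mitophagy and collagen processing are among the known targets. KEAP1 is the adaptor through which the transcription factor NRF2 is ubiquitinated and degraded, and NRF2 is known for antioxidant and carbohydrate metabolism genes. The comparison asked how this program stood in cells with and without KEAP1, under culture for which no oxygen level is stated.

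KEAP1 mRNA did not separate the lines, with normalized counts of 5760, 5226 and 5146 in KYSE450 and 5737, 4906 and 5317 in KEAP1null-KYSE450. A count per gene does not show an edit. NQO1, a textbook NRF2 target, stood at 15681 to 17100 in KYSE450 and at 104116 to 110351 in KEAP1null-KYSE450. Library totals lay between 54829313 and 57380170 normalized counts, and a floor of 3 reads equals 2.77 to 3.21 normalized counts, which covers counting error only. The 7 squamous epithelial markers read between 1667 and 648677 in every library, and the lines differed in them, with means of 71578 and 2738 for KRT6A, 50937 and 1763 for KRT17 and 208100 and 568248 for KRT5 in KYSE450 and KEAP1null-KYSE450. The 3 leukocyte markers read at most 8.09, the 3 endothelial markers at most 67.6 and the 4 fibroblast markers at most 839, with PECAM1 at 0 in all 6 libraries. Mitochondrially encoded genes took 2.04% to 2.83% of the KYSE450 totals and 3.92% to 4.65% of the KEAP1null-KYSE450 totals. The part of these differences in the results below was not tested.

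HREs are the element through which HIF is known to act on its targets, so the members' promoters were searched for them. The RefSeq windows (GRCh38.p14, 250 bases before to 50 after each annotated start) covered 38 of the 43 members, without BNIP3L, NDRG1, SLC16A1, SLC2A3 and VEGFA. The HRE core was searched as ACGTG or GCGTG on both strands, so that the palindrome CACGTG, which is also an E-box, counts on both. A core was present in 29 of 38 member windows (76.3%) and in 48.4% of all 27305 promoter windows. The share was 16 of 23 (69.6%) in the glycolytic arm and 13 of 15 (86.7%) in the hypoxia arm. It was 6 of 8 (75%) in members lower past both thresholds below, and 1 of 2 in those higher. The windows of all promoters were not matched to the members for expression or base content, so the difference in share is only descriptive. BNIP3 and LDHA held the most matches, 6 each, while EGLN3, PDK1, PFKM, PFKP, P4HA2, HK1, SLC16A3, PGAM1 and TPI1 held none. The antioxidant response element core that NRF2 binds with its partners, searched as TGACNNNGC on both strands, was present in 5 of 38 windows (13.2%), against 13.6% of all windows. A match is a description of letters and not a binding site.

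The sequences below are the 250 bases before the start of ANGPTL4, the member with the lowest fold change, of EPAS1, the HIF alpha gene that was higher past both thresholds, and of PGK1, an enzyme gene with 3 cores in this stretch. None of these 3 windows overlaps an annotated exon. They lie on the plus strand at chr19:8363905-8364154, chr2:46297157-46297406 and chrX:78103998-78104247. Capitals mark the HRE core, read on either strand.
ANGPTL4: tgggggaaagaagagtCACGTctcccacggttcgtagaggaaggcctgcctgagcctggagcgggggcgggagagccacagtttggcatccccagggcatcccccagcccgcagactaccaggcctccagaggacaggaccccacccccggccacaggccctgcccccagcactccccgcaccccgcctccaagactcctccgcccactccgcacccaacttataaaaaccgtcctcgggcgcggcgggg
EPAS1: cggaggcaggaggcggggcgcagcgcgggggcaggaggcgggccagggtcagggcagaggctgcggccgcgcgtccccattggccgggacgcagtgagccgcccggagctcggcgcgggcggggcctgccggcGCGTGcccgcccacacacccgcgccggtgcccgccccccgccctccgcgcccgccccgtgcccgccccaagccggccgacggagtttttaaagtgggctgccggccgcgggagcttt
PGK1: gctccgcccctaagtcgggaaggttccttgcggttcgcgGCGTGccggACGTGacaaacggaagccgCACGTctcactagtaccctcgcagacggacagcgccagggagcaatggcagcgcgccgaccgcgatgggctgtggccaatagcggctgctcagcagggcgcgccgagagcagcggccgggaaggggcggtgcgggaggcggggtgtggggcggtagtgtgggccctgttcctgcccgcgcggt

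Shorter stretches of 30 bases show the core of CA9 (chr9:35673898-35673927), ENO2 (chr12:6914450-6914479) and LDHA (chr11:18394366-18394395), all on the plus strand. The core of CA9 starts 18 bases before the annotated start and that of ENO2 118 bases before it. Of the 250 bases before the start, 250 in ENO2, 117 in CA9 and 3 in LDHA lie in annotated exons. The LDHA site is a palindrome.
CA9: tcgtttccaatgCACGTacagcccgtacac
ENO2: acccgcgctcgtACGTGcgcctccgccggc
LDHA: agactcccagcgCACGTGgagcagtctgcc

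The filter on low values was a mean of at least 10 normalized counts over all 6 libraries. SLC2A3 passed it only through KYSE450, with means of 49.9 there and 6.35 in KEAP1null-KYSE450. All 43 members passed the filter and were tested among 16701 genes. Of these members, 2 were higher and 10 were lower in KEAP1null-KYSE450 by both thresholds, an adjusted p below 0.05 and a log2 fold change at or beyond 1 in size (limma, Benjamini-Hochberg adjustment). The higher genes were HK1 and EPAS1 (4.65% of members, against 12.2% of all genes tested). The lower genes were SLC2A3, PFKFB4, ENO2, SLC16A3, CA9, NDRG1, P4HA2, ANGPTL4, ERO1A and LOX (23.3% of members, against 5.98% of all genes). The all-gene shares, here and below, include many low genes. With a mean of at least 100, 875 of 12341 genes were higher and 683 lower, against 2045 and 999 of 16701. Among the members only SLC2A3 and SLC16A3 lie below that mean, so the share of higher members has a smaller background at their level. At the adjusted p alone, 9 members were higher (24.3% of all genes were), 23 were lower (25.5% of all genes were) and 11 passed in neither direction. With edgeR or DESeq2 on 4 libraries 7 were higher and 13 lower, without ALDOA, HIF1A, ALDOC, SLC16A1, P4HA1, ANKRD37, PFKM, PGK1, PGAM1, ENO1 and PKM in either, LDHA with edgeR and NDRG1 with DESeq2. Without the variance trend SLC2A1, PFKM, ALDOC, PGK1, PDK1, CA12, NDRG1 and ANKRD37 missed the adjusted p, and with quantile normalization PFKM, PGAM1, SLC16A1 and CA12 did. The median log2 fold change over the 43 members was -0.33, while the median over all genes was 0.0041. The libraries of the lines did not overlap for 9 members that were higher and 23 that were lower in KEAP1null-KYSE450, and such separation was found for 28.4% and 29.3% of all genes. A positive log2 fold change means a higher level in KEAP1null-KYSE450, on the scale of log2(normalized count + 1), which understates changes of low genes. In a bulk library, fewer cells that express a gene and less RNA per cell cannot be told apart.

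**Figure D1:**
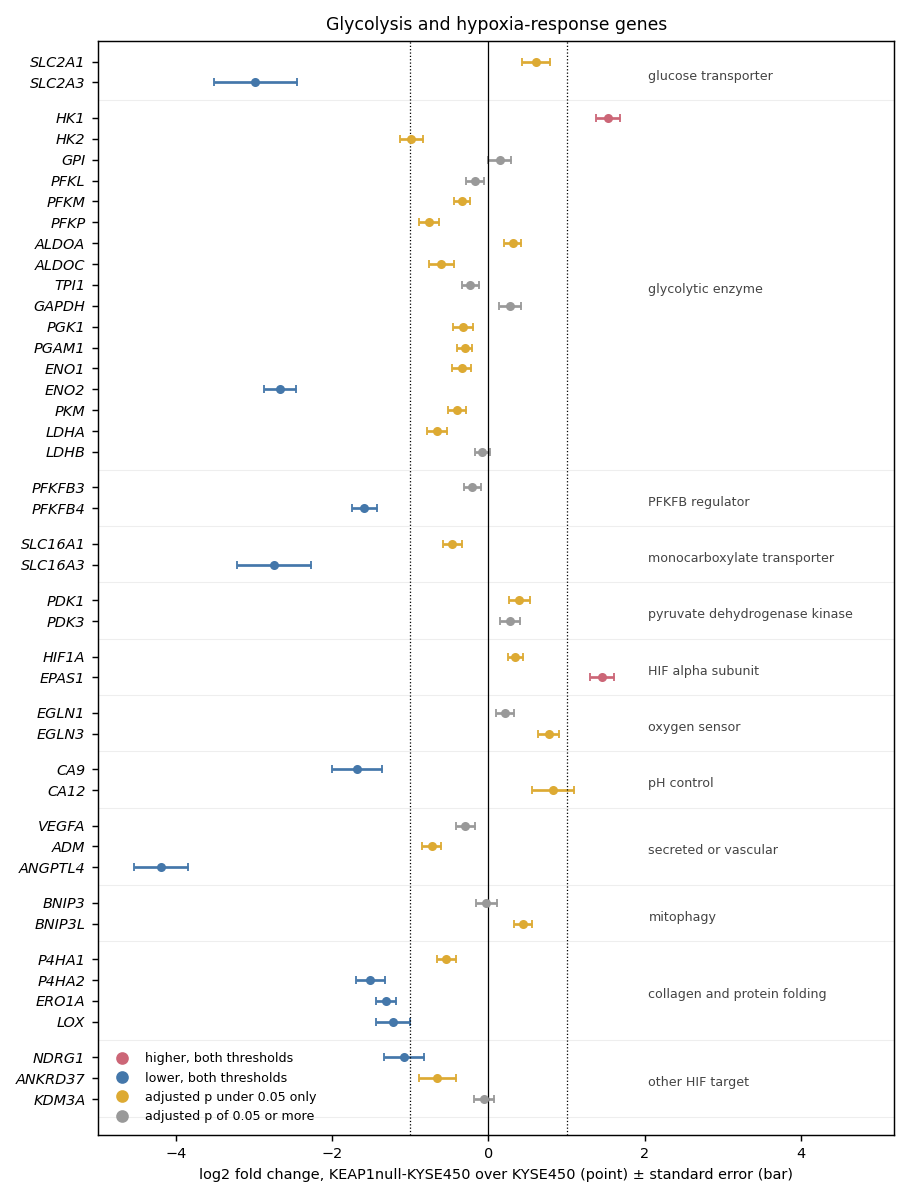
The log2 fold change of each member, KEAP1null-KYSE450 over KYSE450 (horizontal axis), is drawn as a point with its standard error as a bar, grouped by role. Dotted lines stand at -1 and 1, and colour marks the 2 members higher and 10 lower past both thresholds, those past the adjusted p alone, and the 11 that passed neither. ANGPTL4 lies farthest left at -4.19 and HK1 farthest right at 1.53.

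The arms were described side by side, and the difference between them was not tested. Past both thresholds, 1 of 25 genes of the glycolytic arm was higher (4.0%) and 4 were lower (16.0%), and 1 of 18 genes of the hypoxia arm was higher (5.56%) and 6 were lower (33.3%), against 12.2% and 5.98% of all genes. At the adjusted p alone the glycolytic arm had 4 higher (16.0%) and 14 lower genes (56.0%), and the hypoxia arm 5 higher (27.8%) and 9 lower (50.0%), against 24.3% and 25.5% of all genes. The share of hypoxia-arm genes higher at the adjusted p was thus near that of all genes. Their median log2 fold changes were -0.33 and -0.42. Among the 17 enzymes, 1 was higher (HK1) and 1 lower (ENO2) past both thresholds, and 2 were higher and 10 lower at the adjusted p alone. The 4 lower genes of the glycolytic arm were thus a transporter for glucose, a transporter for lactate, a regulator and an enzyme isozyme.

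Glucose uptake was read from SLC2A1 and SLC2A3, which encode the transporters GLUT1 and GLUT3. SLC2A3 (ENSG00000059804, chromosome 12, 7919230 to 8019007, minus strand) read 63.1, 46.5 and 40.1 normalized counts in KYSE450 and 2.77, 12.2 and 4.04 in KEAP1null-KYSE450. All KEAP1null-KYSE450 libraries were below all KYSE450 libraries, and 1 of them was at the floor of 3 reads. The mean fell from 49.9 ± 11.9 to 6.35 ± 5.14 (SD, n = 3 libraries per line), 7.86-fold, with a log2 fold change of -2.99 (standard error 0.53, limma, Benjamini-Hochberg adjusted p = 0.00057). With a pseudocount of 10 in place of 1 the log2 fold change was -1.90. SLC2A1 was the far more abundant transporter gene, at 6484 and 9811 normalized counts per kb of transcript in KYSE450 and KEAP1null-KYSE450, where SLC2A3 had 13.0 and 1.66. SLC2A1 counts were 26209, 23565 and 16056 in KYSE450 and 40679, 31757 and 27170 in KEAP1null-KYSE450, which do not overlap. Its log2 fold change of 0.61 (standard error 0.18, limma adjusted p = 0.013) was 0.45 without KEAP1null-KYSE450 library 1, with an adjusted p of 0.057, and 0.40 without KYSE450 library 3, with an adjusted p of 0.045.

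Hexokinase, the first enzyme of the pathway, showed opposite changes in its 2 member genes. HK1 (ENSG00000156515, chromosome 10, 69269984 to 69401884, plus strand), the widely expressed isozyme, read 7323, 5278 and 4702 in KYSE450 and 19237, 15427 and 14884 in KEAP1null-KYSE450. The lowest KEAP1null-KYSE450 library lay above the highest KYSE450 library. The mean rose 2.86-fold, from 5768 ± 1377 to 16516 ± 2372 (SD, n = 3), with a log2 fold change of 1.53 (standard error 0.15, limma adjusted p = 5.1e-06). HK2, the isozyme known for induction by hypoxia and in tumors, read 13831, 10970 and 8816 in KYSE450 and 6229, 5637 and 4883 in KEAP1null-KYSE450. These ranges did not overlap either, and HK2 passed the adjusted p (0.00014, limma) but stood just short of the fold threshold, at -0.99 (standard error 0.15). It was past that threshold without KYSE450 library 3 (-1.15) or without KEAP1null-KYSE450 library 1 (-1.07). Per kb, HK2 made up 54.7%, 57.1% and 54.6% of the summed HK1 and HK2 level in KYSE450 and 17.2%, 19.0% and 17.4% in KEAP1null-KYSE450. The major hexokinase gene per kb was therefore HK2 in KYSE450 and HK1 in KEAP1null-KYSE450.

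Glucose phosphate isomerase and phosphofructokinase follow. GPI averaged 45420 and 49856 (log2 fold change 0.15, limma adjusted p = 0.43), and without KYSE450 library 3 its log2 fold change was -0.0057. The phosphofructokinase genes encode subunits of the enzyme that commits sugar to glycolysis. The platelet type PFKP fell from 17108 to 10048 (log2 fold change -0.76, limma adjusted p = 0.00031), and the muscle type PFKM fell from 11921 to 9412 (-0.34, limma adjusted p = 0.018). Without KEAP1null-KYSE450 library 2 or 3 the adjusted p of PFKM was 0.082 or 0.086. The liver type PFKL averaged 14028 and 12333 and did not pass the test (-0.18, limma adjusted p = 0.23).

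PFKFB enzymes make and break fructose-2,6-bisphosphate, the strongest activator of phosphofructokinase. PFKFB4 (ENSG00000114268, chromosome 3, 48517684 to 48562015, minus strand) read 2511, 2473 and 1580 in KYSE450 and 701, 770 and 664 in KEAP1null-KYSE450. Every KEAP1null-KYSE450 value was below every KYSE450 value. The mean fell 3.08-fold, from 2188 ± 527 to 712 ± 53.7 (SD, n = 3), with a log2 fold change of -1.59 (standard error 0.16, limma adjusted p = 6.7e-06). PFKFB3 averaged 3066 and 2649 and did not pass (-0.21, limma adjusted p = 0.15).

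From aldolase to pyruvate kinase, most genes differed by less. GAPDH had the highest level per kb of all members, at 307770 and 371803, and did not pass the test (log2 fold change 0.27, limma adjusted p = 0.12). Its direction depended on scaling, since quantile normalization gave -0.39, with an adjusted p of 0.023 in that direction. TPI1, triose phosphate isomerase, averaged 93077 and 79154 and did not pass (-0.23, limma adjusted p = 0.096). PGK1, PGAM1, ENO1 and PKM, which carry phosphoglycerate to pyruvate, all fell at the adjusted p alone. Their log2 fold changes lay between -0.31 and -0.41 (limma adjusted p between 0.012 and 0.045). These small differences depended on single libraries. PGAM1 and PKM missed the adjusted p without KYSE450 library 2 or KEAP1null-KYSE450 library 2 or 3 (0.059 to 0.088 and 0.051 to 0.076). ENO1 missed it without any of these or KYSE450 library 1 (0.067 to 0.15), and PGK1 without KYSE450 library 2 or 3 or KEAP1null-KYSE450 library 1 or 3 (0.089 to 0.21). Of the 22 neighbouring genes within 1 Mb of PGAM1, 12 were lower and 5 higher at the adjusted p. Their median log2 fold change was -0.41, against -0.31 for PGAM1. PGK1, whose promoter stretch is printed above, read 64729, 83113 and 76030 in KYSE450 and 56161, 66796 and 55214 in KEAP1null-KYSE450, and these ranges overlap. ALDOC fell from 5773 to 3723 (-0.60, limma adjusted p = 0.0065; 0.060 without trend, 0.12 with edgeR and 0.10 with DESeq2) and ALDOA rose from 1033 to 1277 (0.31, limma adjusted p = 0.030), a call that was kept in the leave-one-out fits only without KYSE450 library 1 (0.054 to 0.11 in the other 5). Of the exonic bases of ALDOA, 42.8% are shared with another gene annotated on the same strand, so its level is uncertain.

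Between aldolase and lactate dehydrogenase, ENO2 was the gene past both thresholds. ENO2 (ENSG00000111674, chromosome 12, 6913745 to 6923698, plus strand), known as neuron-specific enolase and as a HIF target, read 2017, 1548 and 1174 in KYSE450 and 282, 277 and 180 in KEAP1null-KYSE450. The groups were far apart. The mean fell 6.41-fold, from 1580 ± 423 to 246 ± 57.9 (SD, n = 3), with a log2 fold change of -2.67 (standard error 0.21, limma adjusted p = 6.4e-07). TPI1 and GAPDH, which lie close to ENO2 on the same arm of chromosome 12, had log2 fold changes of -0.23 and 0.27. Of the 39 neighbouring genes within 1 Mb of ENO2, 6 were lower and 16 higher at the adjusted p (median log2 fold change 0.21). Among the 10 members lower past both thresholds, such neighbour medians ran from -0.81 for NDRG1, with 2 neighbours, to 0.21 for ENO2. Some members with smaller changes, such as PGAM1, LDHA, ADM and VEGFA, had mostly lower neighbours. ENO2 accounted for 0.60% of the summed enolase level per kb in KYSE450 and 0.12% in KEAP1null-KYSE450, ENO1 being the bulk in both.

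Lactate production and export closed the glycolytic arm. LDHA, the lactate dehydrogenase gene that HIF and MYC are known to induce, read 205594, 226479 and 202536 in KYSE450 and 132692, 145225 and 124096 in KEAP1null-KYSE450. It fell 1.58-fold, with a log2 fold change of -0.66 (standard error 0.12, limma adjusted p = 0.00081) and no overlap. Its adjusted p was 0.068 with edgeR and 0.0027 with DESeq2 on 4 libraries. Of the 11 neighbouring genes within 1 Mb of LDHA, 9 were lower and 1 higher at the adjusted p (median log2 fold change -0.48). Those shares were 25.5% and 24.3% over all genes. Whether the fall was specific to LDHA was not tested. LDHB averaged 2846 and 2699 and did not pass (-0.08, limma adjusted p = 0.51). A same-strand gene shares 33.4% of its exonic bases, so its level is uncertain.

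SLC16A3 (ENSG00000141526, chromosome 17, 82217934 to 82261129, plus strand) encodes MCT4, the lactate exporter of glycolytic cells. It read 143, 98.1 and 72.7 in KYSE450 and 31.4, 7.14 and 12.1 in KEAP1null-KYSE450. The groups did not overlap. The mean fell 6.21-fold, from 105 ± 35.8 to 16.9 ± 12.8 (SD, n = 3), with a log2 fold change of -2.75 (standard error 0.47, limma adjusted p = 0.00043). SLC16A1, which encodes MCT1 and was the more abundant of these transporters per kb (3474 against 40.3 in KYSE450), fell from 13036 to 9511 (-0.46, limma adjusted p = 0.0066). With quantile normalization its adjusted p was 0.055, with edgeR 0.17 and with DESeq2 0.12. The pyruvate dehydrogenase kinases hold pyruvate back from the mitochondria. PDK1 rose from 3030 to 3966 (0.40, limma adjusted p = 0.024), with an adjusted p of 0.063 without KYSE450 library 1 and 0.12 without KEAP1null-KYSE450 library 2. PDK3 averaged 1004 and 1212 without passing (0.28, limma adjusted p = 0.086), and passed without KYSE450 library 1 (0.37, adjusted p = 0.024).

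**Figure D2:**
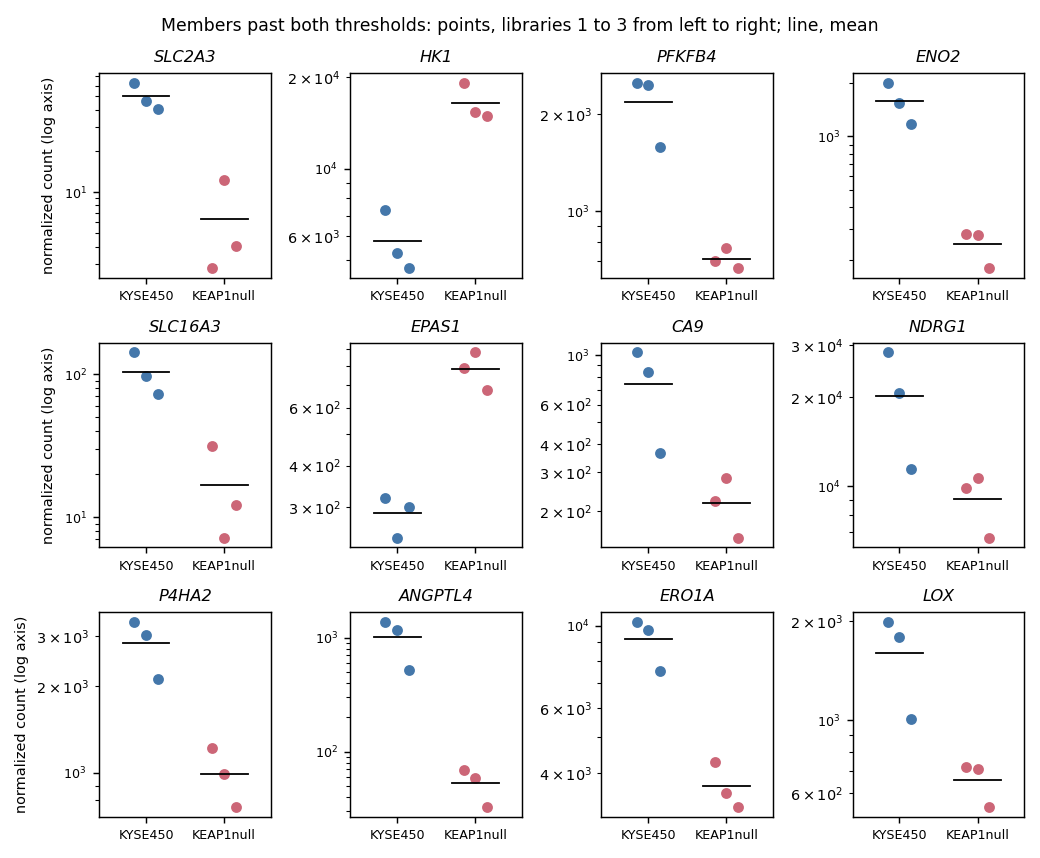
Normalized counts (vertical axis, log scale) of the 12 members past both thresholds are drawn, 1 panel per gene and 1 point per library, with a horizontal line at each mean. HK1 and EPAS1 are higher in all KEAP1null-KYSE450 libraries than in any KYSE450 library, and the other 10 genes are lower. Panels have separate axes.

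In the hypoxia arm, both HIF alpha genes were higher in KEAP1null-KYSE450. EPAS1 (ENSG00000116016, chromosome 2, 46293667 to 46386697, plus strand), which encodes HIF-2 alpha, read 320, 242 and 299 in KYSE450 and 792, 884 and 677 in KEAP1null-KYSE450. The lines were well separated. The mean rose 2.73-fold, from 287 ± 40.5 to 784 ± 104 (SD, n = 3), with a log2 fold change of 1.45 (standard error 0.15, limma adjusted p = 9.8e-06). HIF1A, which encodes HIF-1 alpha and is controlled mainly at the protein level, read 11228, 10088 and 11082 in KYSE450 and 15264, 12864 and 13107 in KEAP1null-KYSE450. It rose at the adjusted p alone (0.35, standard error 0.10, limma adjusted p = 0.012), and missed it without KYSE450 library 2 (0.069). Per kb, HIF1A remained the major gene, and EPAS1 made up 1.99% ± 0.17 of their summed level in KYSE450 and 4.21% ± 0.69 in KEAP1null-KYSE450 (SD, n = 3).

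The oxygen sensors EGLN1 and EGLN3 hydroxylate HIF alpha, and EGLN3 is itself a HIF target. EGLN3 read 2574, 2634 and 1818 in KYSE450 and 3971, 4323 and 3573 in KEAP1null-KYSE450, without overlap. It rose at the adjusted p alone (log2 fold change 0.77, standard error 0.14, limma adjusted p = 0.00058). EGLN1 averaged 3474 and 3992 and did not pass (0.21, limma adjusted p = 0.15).

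Carbonic anhydrases hydrate CO2 at the cell surface and help a glycolytic cell control its pH. CA9 (ENSG00000107159, chromosome 9, 35673928 to 35681159, plus strand), a standard marker of tumor hypoxia, read 1033, 840 and 365 in KYSE450 and 222, 280 and 151 in KEAP1null-KYSE450. The lowest KYSE450 value, that of library 3, was the closest to the KEAP1null-KYSE450 values, but the groups did not overlap. The mean fell 3.42-fold, from 746 ± 344 to 218 ± 64.6 (SD, n = 3), with a log2 fold change of -1.68 (standard error 0.32, limma adjusted p = 0.00097). An opposite-strand gene shares 35.7% of the exonic bases of CA9, and the strand setting of the counting is not given in the sources used here. CA12, the related membrane enzyme, read 167, 152 and 81.1 in KYSE450 and 294, 199 and 200 in KEAP1null-KYSE450, and rose at the adjusted p alone (0.83, standard error 0.27, limma adjusted p = 0.022). Without KYSE450 library 3 its log2 fold change was 0.51 with an adjusted p of 0.075, without KEAP1null-KYSE450 library 1 it was 0.64 with an adjusted p of 0.095, and without KYSE450 library 1 it was 1.03 and past both thresholds.

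Among the secreted factors, ANGPTL4 (ENSG00000167772, chromosome 19, 8363289 to 8374370, plus strand) had the lowest log2 fold change of the 43 members. It encodes an inhibitor of lipoprotein lipase that HIF and PPAR factors are known to induce. The counts were 1390, 1169 and 519 in KYSE450 and 68.3, 59.1 and 32.3 in KEAP1null-KYSE450. All of the KEAP1null-KYSE450 libraries stood far below the lowest KYSE450 library. The mean fell 19.3-fold, from 1026 ± 453 to 53.2 ± 18.7 (SD, n = 3), with a log2 fold change of -4.19 (standard error 0.34, limma adjusted p = 1.0e-06). Among all genes tested, this value stood at percentile 0.575. ADM, which encodes the vasodilator adrenomedullin, fell from 7481 to 4483 (-0.73, limma adjusted p = 0.00035). VEGFA, the main angiogenic ligand, averaged 2447 and 1975 and did not pass (-0.30, limma adjusted p = 0.066), though it did without KYSE450 library 3 (-0.42, adjusted p = 0.013). Within 1 Mb of ADM, 8 of 15 neighbouring genes were lower and 4 higher at the adjusted p (median log2 fold change -0.48). Within 1 Mb of VEGFA, 25 of 36 were lower and 2 higher (median -0.54). Whether these differences were specific to ADM and VEGFA was not tested.

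The 4 members that act in collagen processing or oxidative folding were P4HA1, P4HA2, ERO1A and LOX, and all but P4HA1 were lower past both thresholds, as were 5.98% of all genes tested. P4HA2 (ENSG00000072682, chromosome 5, 132190147 to 132295315, minus strand), a collagen prolyl hydroxylase subunit, read 3364, 3009 and 2114 in KYSE450 and 1216, 992 and 756 in KEAP1null-KYSE450. It fell 2.86-fold without overlap, with a log2 fold change of -1.52 (standard error 0.19, limma adjusted p = 3.0e-05). The related P4HA1 fell from 8251 to 5693 at the adjusted p alone (-0.54, limma adjusted p = 0.0022; 0.14 with edgeR and 0.091 with DESeq2). ERO1A (ENSG00000197930, chromosome 14, 52639915 to 52695900, minus strand), the oxidase that drives disulfide formation in the endoplasmic reticulum, read 10246, 9724 and 7536 in KYSE450 and 4277, 3547 and 3233 in KEAP1null-KYSE450. Its levels were separate, with a 2.49-fold fall and a log2 fold change of -1.31 (standard error 0.13, limma adjusted p = 6.1e-06). LOX (ENSG00000113083, chromosome 5, 122063195 to 122078413, minus strand), which crosslinks collagen and elastin, read 1990, 1784 and 1008 in KYSE450 and 723, 713 and 544 in KEAP1null-KYSE450. It fell 2.42-fold without overlap, with a log2 fold change of -1.22 (standard error 0.21, limma adjusted p = 0.00048).

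NDRG1 (ENSG00000104419, chromosome 8, 133237175 to 133302022, minus strand), a stress-response gene widely used in hypoxia signatures, read 28369, 20670 and 11424 in KYSE450 and 9870, 10695 and 6697 in KEAP1null-KYSE450. The groups did not overlap, but KYSE450 library 3 came close to the highest KEAP1null-KYSE450 library. Its log2 fold change of -1.08 (standard error 0.26, limma adjusted p = 0.0043) was near the threshold. Without KYSE450 library 1 it was -0.79, and without KEAP1null-KYSE450 library 3 it was -0.88. With edgeR on 4 libraries it was -0.91 (adjusted p = 0.025), and with DESeq2 on the same 4 libraries -0.95 (adjusted p = 0.24). The mitophagy receptor gene BNIP3L rose from 6694 to 9063 (0.44, limma adjusted p = 0.0058), while BNIP3, its close relative, averaged 8527 and 8318 (-0.03, limma adjusted p = 0.87). ANKRD37 fell from 218 to 138 (-0.65, limma adjusted p = 0.034), with an adjusted p of 0.16 without KYSE450 library 2 and 0.15 without KEAP1null-KYSE450 library 3. An opposite-strand gene shares 40.3% of its exonic bases. KDM3A, a histone demethylase gene, averaged 6254 and 5990 (-0.06, limma adjusted p = 0.74). The signs for BNIP3 and KDM3A changed with the scaling.

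Related genes were also compared within each library, which removes any shared scaling of the library. For 15 pairs, the log2 ratio was compared between the lines with a two-sided exact permutation test, which cannot go below p = 0.10 with 3 libraries against 3. The ratio separated the lines in 14 pairs, each at that smallest exact permutation p of 0.10 (0.11 after Benjamini-Hochberg adjustment over the 15 pairs), so that no pair could pass 0.05. Of single genes tested, 28.4% separated the lines upward and 29.3% downward. The share over other gene pairs was not computed, so 14 of 15 has no background beside it. The differences in log2 ratio, KEAP1null-KYSE450 minus KYSE450, were -3.59 for SLC2A3 to SLC2A1, -2.52 for HK2 to HK1, -2.33 for ENO2 to ENO1 and -2.29 for SLC16A3 to SLC16A1. The ratio of CA12 to CA9 moved the other way by 2.52, and that of EPAS1 to HIF1A by 1.10. PFKFB4 to PFKFB3 differed by -1.38, P4HA2 to P4HA1 by -0.98 and ALDOC to ALDOA by -0.91. The remaining separated pairs, PFKP and PFKM to PFKL, LDHB to LDHA, EGLN3 to EGLN1 and BNIP3L to BNIP3, lay between -0.58 and 0.58. Only PDK3 to PDK1 overlapped (-0.12, exact permutation p = 0.90). The HK2 to HK1 ratio was also the most even within lines among the pairs with differences over 2, with SDs of 0.08 and 0.10.

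**Figure D3:**
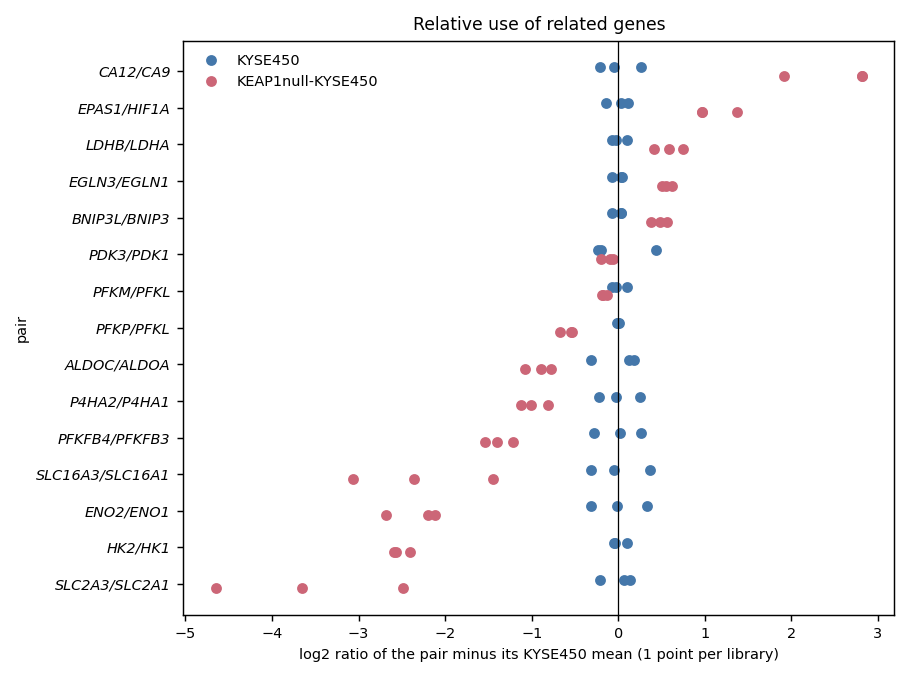
For each of 15 gene pairs (vertical axis), the log2 ratio in each library is drawn after subtraction of the KYSE450 mean of that pair (horizontal axis), 1 point per library and coloured by line. KEAP1null-KYSE450 points lie clear of KYSE450 points for every pair except PDK3 to PDK1, with SLC2A3 to SLC2A1 farthest left and CA12 to CA9 farthest right.

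Within a line, the members also moved together between libraries. KYSE450 library 3 was the lowest of its line for 36 of the 43 members (83.7%), while it was the lowest for 35.9% of all genes tested. Library 1 was lowest for 5 members (36.5% of all genes) and library 2 for 2 (27.6% of all genes). In the hypoxia arm its median deviation from the line mean was -0.28 on the log2 scale, and 2 of 18 genes stood above that mean. KEAP1null-KYSE450 library 3 deviated by -0.19 there, with 0 of 18 genes above the line mean. In the glycolytic arm the deviations of these libraries were -0.16 and -0.11, with 3 and 2 of 25 genes above. Over all genes tested, the median deviation of every library lay between -0.014 and 0.027. From the highest to the lowest of the 3 KYSE450 libraries, the median over the members was 1.37-fold and that over all genes 1.28-fold. It was 1.33-fold in the glycolytic arm and 1.42-fold in the hypoxia arm. The members that varied most were CA9 (2.83-fold), ANGPTL4 (2.68-fold) and NDRG1 (2.48-fold). The summed counts of the hypoxia arm were 105163, 99333 and 72780 in KYSE450 and 76544, 77154 and 65481 in KEAP1null-KYSE450, so that KYSE450 library 3 lay within the KEAP1null-KYSE450 range. The 17 enzymes together took 2.14% to 2.39% of each KYSE450 library and 2.01% to 2.20% of each KEAP1null-KYSE450 library, ranges that overlap. No measure of oxygen, density or day accompanies the libraries, and without KYSE450 library 3 the counts past both thresholds were 2 members higher and 11 lower, HK2 being added.

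**Figure D4:**
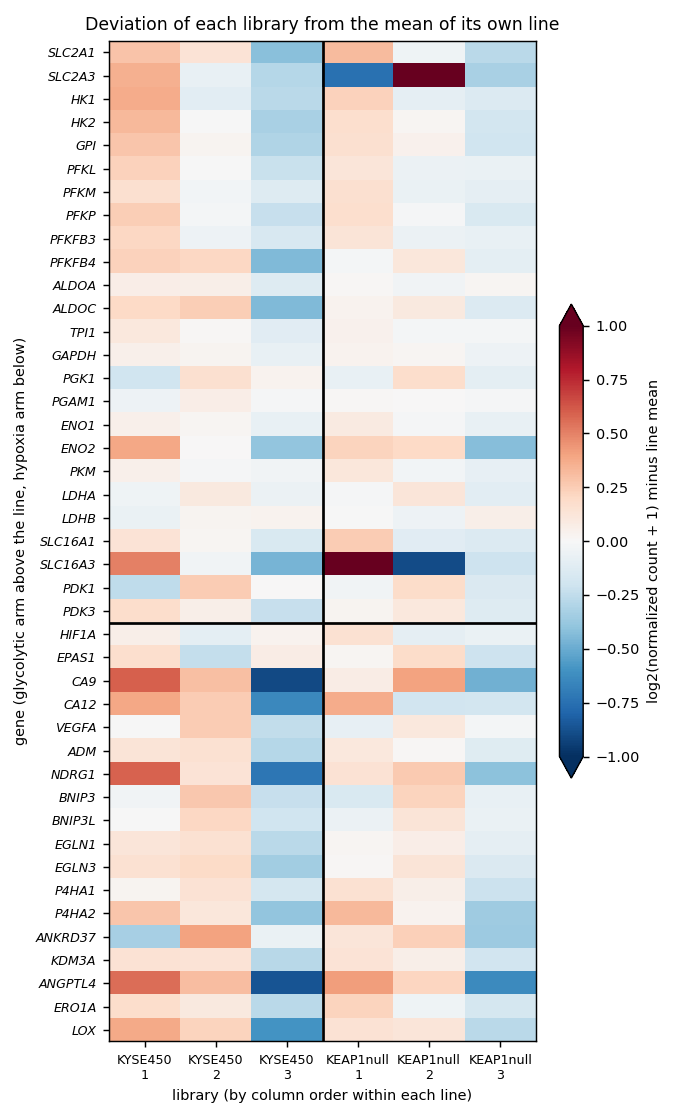
Each row is a member (glycolytic arm above the line, hypoxia arm below it) and each column a library, coloured by the log2(normalized count + 1) minus the mean of its own line (red above, blue below; colours end at -1 and 1). Library 3 of KYSE450 is blue in most rows, and library 3 of KEAP1null-KYSE450 is blue in all 18 hypoxia rows.

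Further genes of the same pathways, which are not members, were read from lists set with earlier results of these data known. Of 38 other glycolysis and pyruvate genes, 25 passed the filter, and 2 of these were higher (8.0%) and 2 lower (8.0%) past both thresholds, near the 12.2% and 5.98% of all genes. At the adjusted p alone 5 were higher (20%) and 13 lower (52.0%), against 24.3% and 25.5% of all genes, and the median log2 fold change was -0.39. PDP1, a phosphatase that reactivates pyruvate dehydrogenase, fell from 15546 to 1680 (-3.21, limma adjusted p = 3.6e-11). PDK4, a kinase that inactivates the same enzyme, rose from 8.56, 11.1 and 5.59 to 80.3, 76.5 and 64.6 (3.03, limma adjusted p = 4.5e-05). PDK4 passed the filter only through KEAP1null-KYSE450, with means of 8.42 in KYSE450 and 73.8 there. Its log2 fold change ranged from 2.19 to 3.49 across the alternative settings. The transporter gene SLC2A6 fell (-2.42, limma adjusted p = 4.3e-07), and PFKFB1 rose from a low level (1.55, limma adjusted p = 0.0060). HKDC1, the hexokinase-domain gene next to HK1, had a mean below the filter and no test, with 0 in each KYSE450 library and 29.5, 6.12 and 12.1 in KEAP1null-KYSE450. Counts of 0 allow up to 3 reads per library.

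Of 49 other hypoxia-response genes, 44 were tested, and 1 of these was higher (2.27%) and 7 lower (15.9%) past both thresholds, against 12.2% and 5.98% of all genes. At the adjusted p alone 3 were higher (6.82%) and 23 lower (52.3%), against 24.3% and 25.5%, and the median was -0.45. The higher gene was BHLHE41, a circadian repressor and HIF target (1.99, limma adjusted p = 2.4e-06). The lower genes included 3 that act on vessels or on migrating cells. EDN1, the vasoconstrictor endothelin, read 1308, 1370 and 1244 against 176, 158 and 143 (-3.03, limma adjusted p = 3.1e-09). PGF, placental growth factor, was at -3.15 (limma adjusted p = 3.1e-06) and CXCR4, a chemokine receptor, at -3.42 (limma adjusted p = 0.00026). CXCR4 was a low gene, at 55.6, 70.8 and 33.6 against 8.30, 3.06 and 2.02, with 2 libraries at the floor of 3 reads. It passed the filter only through KYSE450, with means of 53.3 there and 4.46 in KEAP1null-KYSE450. Its log2 fold change ranged from -4.14 to -2.11 across the alternative settings. LOXL2 (-1.48), PLOD1 (-1.02) and INSIG2 (-1.03) were also lower, with limma adjusted p between 9.1e-05 and 0.0021. PLOD1 and INSIG2 stood near the fold threshold and kept this call in 8 and 9 of 15 alternative settings. Both lost it with edgeR and DESeq2, while LOXL2 kept it in all 15. PLOD1 and LOXL2 act on collagen, as P4HA2 and LOX do. The related PLOD2 was short of the fold threshold (-0.65, limma adjusted p = 0.0026), as P4HA1 was, and missed the adjusted p with edgeR and DESeq2. Without KYSE450 library 3 the number of lower genes in this list was 12. ARNT, the partner of both HIF alpha subunits, read 3800, 3566 and 3069 against 2063, 1733 and 1741, a log2 fold change of -0.91 (limma adjusted p = 3.3e-05) that is short of the fold threshold. Of the 45 neighbouring genes within 1 Mb of ARNT, 34 were lower and 3 higher at the adjusted p. Their median log2 fold change was -0.59, so much of its region was lower too. Whether the fall was specific to ARNT was not tested. VHL, the ubiquitin ligase subunit that recognizes hydroxylated HIF alpha, did not pass (-0.09, limma adjusted p = 0.41). ARNT, VHL and PLOD2 were named after their values were seen.

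**Figure D5:**
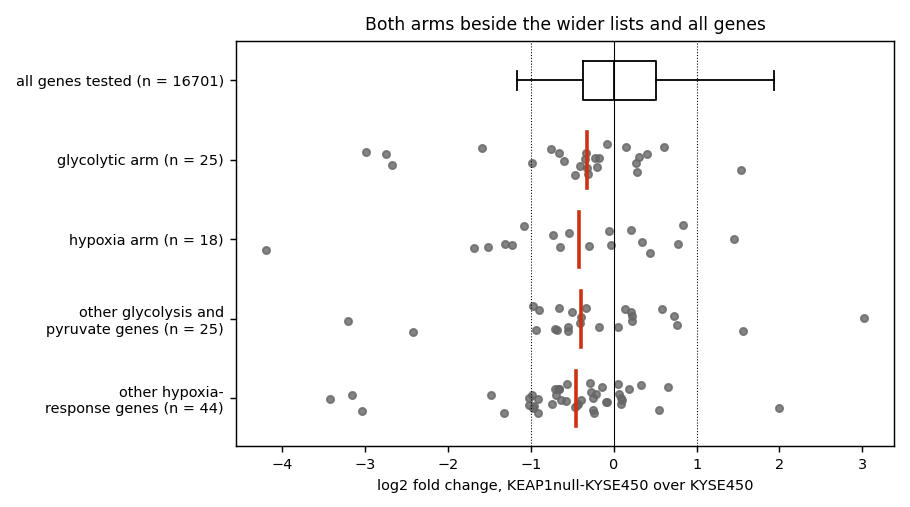
The log2 fold change, KEAP1null-KYSE450 over KYSE450 (horizontal axis), is drawn for each tested gene of the glycolytic arm, the hypoxia arm and the wider lists as a point with a red line at the median, below a box plot of all 16701 genes tested (box, quartiles; whiskers, percentiles 5 to 95). The 4 medians lie between -0.33 and -0.45, and the all-gene median is 0.0041.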

How the data were processed

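RNA sequencing libraries of KYSE450 (n = 3) and KEAP1null-KYSE450 (n = 3) cells were analysed. The deposited matrix holds a signal per gene and library, the normalized count. Per the labels and methods, the authors aligned reads to hg38 with STAR 2.6.90c, counted them per gene with featureCounts 1.5.1 and normalized the matrix. A RefSeq annotation is named, while the matrix carries Ensembl identifiers. The columns give no replicate number, so libraries were numbered by column order.

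Lines were compared with limma 3.58.1 under R 4.3.3 (linear model, then eBayes with a mean trend), applied to log2(normalized count + 1) over all 6 libraries and 16701 genes with a mean of at least 10, two-sided, with Benjamini-Hochberg adjustment over all of them. Calls required an adjusted p below 0.05 and a log2 fold change at or beyond 1 in size. In all 6 libraries 100% of the deposited values above 0 were whole multiples of 1 read within 0.05 reads, giving totals of 53027359 to 61543442 reads. edgeR 4.0.16 (quasi-likelihood, TMM) and DESeq2 1.42.0 were run as alternatives on the recovered reads of 4 libraries (KYSE450 1 and 3, KEAP1null-KYSE450 1 and 2), and called 2698 and 2500 genes. The other library of each line was left out of them because 1 read was there worth 1.01 normalized counts, too near 1 for the recovery to be accepted. The main limma fit, edgeR and DESeq2 were tried on simulated counts, and the permutation test and the other settings were not. Further settings were a pseudocount of 0.1 or 10, omission of the filter or its increase to 100, quantile normalization, equal library totals, no trend, a test against a fold change of 1.5 and each library left out.

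Members, lists and tests were chosen with earlier results of these data known. Members past both thresholds were named with every library value, and genes of the other lists when past both thresholds, except 1 that is counted but not reported here. Positions, transcript lengths and exon overlaps came from gencode v44 (hg38), promoter windows from RefSeq.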

Additional observations from a re-analysis of the deposited data

How the results depend on the processing

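No paired analysis was possible because the matrix columns carry the line's name and no replicate number. Members called past both thresholds numbered 2 to 3 higher and 9 to 11 lower when each library was left out, and edgeR and DESeq2 on 4 libraries each called 3 higher and 9 lower. Those tools found 13 members lower at the adjusted p alone, against 23 with limma on 6 libraries, and 2 higher in the hypoxia arm, against 1 (1 to 2 with each library left out). The glycolytic arm had 2 lower genes at a mean of at least 100 and 1 when only the 17 enzymes were counted, against 4. Other glycolysis genes called higher numbered 4 without a filter, 0 at a mean of at least 100, where both genes are too low to be tested, and 1 in the test against a fold change of 1.5, against 2 (2 in each leave-one-out). Other hypoxia genes called lower numbered 6 to 12 with each library left out, against 7. Under quantile normalization 1388 of all genes were higher and 1289 lower, against 2045 and 999, and the log2 fold changes changed sign for PFKL (0.0080), GAPDH (-0.39), LDHB (0.035), KDM3A (0.11) and BNIP3 (0.15). BNIP3 also changed sign with rescaling (0.0023), edgeR (0.19) and DESeq2 (0.16), and KDM3A with edgeR (0.13) and DESeq2 (0.10). With each library left out BNIP3 ranged from -0.15 to 0.11, KDM3A from -0.20 to 0.041, GPI from -0.0057 to 0.29 and the PDK3 to PDK1 ratio from -0.23 to 0.098. The cause was not tested. In all, 551 member values kept their direction and side of the adjusted p threshold across alternatives, 70 lost it, 5 gained it and 17 changed sign. SLC2A3, SLC16A3 and, outside the members, CXCR4, PDK4 and PFKFB1 rest on low counts, where a few reads move the fold change. CA12 read 81.1 to 294, and a pseudocount of 10 in place of 1 moved its log2 fold change only from 0.83 to 0.79.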
